A study of Acyrthosiphon pisum with 15 samples.

Results

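Of 20657 gene models measured in whole pea aphids (Acyrthosiphon pisum), 100 were set apart by their low level in sexual females against both males and asexual females. They were chosen from the measured values. A gene model was eligible when its normalised count, a read count divided by the size factor of its library, was at least 100 in each of the 12 libraries of males and asexual females, and 8079 were. The lowest of those 12 values was divided by the highest of the 3 sexual female values plus 1, and the 100 gene models with the largest ratio were taken. The contrast between sexual females and the other morphs is therefore given as a description, without a test. None of the 100 identifiers was found in the RefSeq gene table of assembly pea_aphid_22Mar2018_4r6ur_v2, where 61 of all 20657 were, so no gene name or role is given.

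Pea aphids spend the long days of the growing season as asexual females, which carry developing embryos and give birth without mating. Short days bring on a generation of males and sexual females, whose ovaries make yolk-filled eggs that are laid after mating. Asexual and sexual females of a clone share a genome, and males carry a single X chromosome.

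The study sampled 5 adult morphs in 3 clones named F1, I18 and BK11, with 30 aphids pooled per library, 1 library per morph and clone, and thus n = 3 per morph. Winged and wingless asexual females were reared at 18 °C under 16 h of light and 8 h of dark and taken at 2 days of adult age. Winged and wingless males were reared at 15 °C under 13 h of light and 11 h of dark and taken at the same age. Sexual females shared the rearing of the males but were 2 to 6 days old. Their age range thus differed from that of every other group, while their day length and temperature were those of the males. The clones are different genotypes, and the spread between them includes that between preparations. In whole bodies, fewer cells of a type and less RNA per cell cannot be told apart.

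Libraries held 28721904 to 75066116 reads. Some stood apart from others of their morph. In the I18 wingless male library, 32 gene models that were at 1000 or more in all asexual females and at no more than 1% of that in sexual females had a median of 96.6% of their asexual female mean, against 0.211% to 1.58% in the other 5 male libraries. In the same library, 57 gene models high in the other 5 male libraries and at no more than 1% in females had a median of 142% of their mean in those 5. The same check gave 17.8% in the BK11 winged male library, over 109 gene models, and 54.3% to 188% in the remaining 4. The choice of members rested in part on such libraries: without the I18 wingless male library 69 of the 100 would be chosen again, and without the BK11 sexual female library 57. The values are not scaled for gene length, so a level is compared between libraries and not, as an amount of RNA, between gene models.

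In sexual females the 100 gene models were expressed at a few percent of their level elsewhere. The mean over the 12 other libraries ran from 202 to 19101 normalised counts with a median of 1418, and the sexual female mean from 3.58 to 471 with a median of 38.8. The sexual female mean was 0.0858% to 6.93% of the mean elsewhere, with a median of 2.83%. It was at or below 5% for 98 gene models, at or below 2% for 23 and at or below 1% for 6. Against the lowest of the other 4 morph means, sexual females were lower by a median of 23.5-fold. Every member had at least 1 read in every sexual female library, and 3 reads or fewer were found for 9 members in F1, 2 in I18 and 1 in BK11. Together the 100 gene models held 0.00734% to 0.0244% of the normalised counts of a sexual female library and 0.406% to 0.917% of those of any other library.

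**Figure D1:**
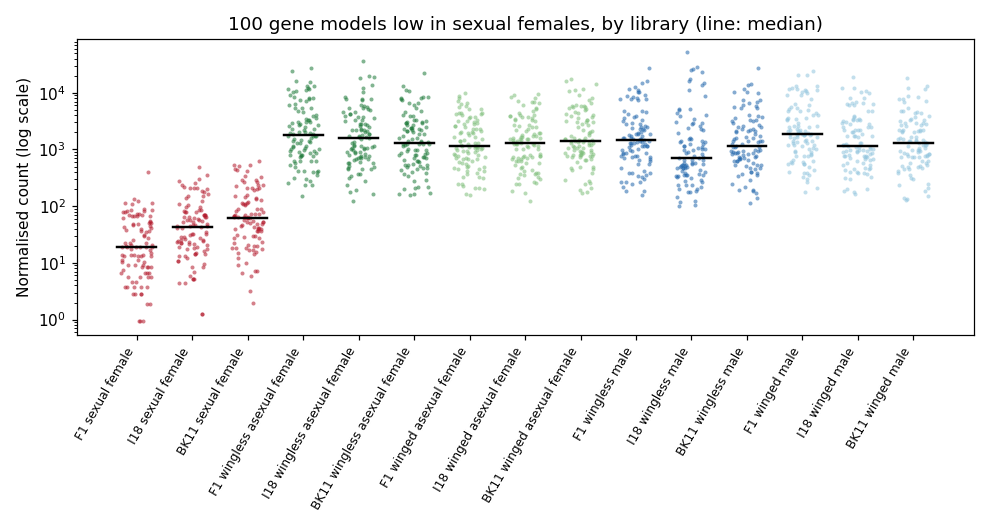
Normalised counts (log scale) of the 100 gene models in each of the 15 libraries, with 1 point per gene model and a line at the library median. The medians of the sexual female libraries, 18.7 to 63.1, lie below those of the other 12, 713 to 1842, as the choice of members fixes.

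The largest ratio, 36.4, belonged to ACYPI008148-RA. Its normalised count in sexual females was 2.81 in F1, 8.33 in I18 and 6.51 in BK11, from 3, 13 and 10 reads. It was 881 in F1, 518 in I18 and 881 in BK11 in wingless asexual females, and 475 in F1, 381 in I18 and 383 in BK11 in winged ones. In wingless males it was 677 in F1, 339.6 in I18 and 878 in BK11, and in winged males 764 in F1, 775 in I18 and 1216 in BK11. The lowest of these 12 values was that of the I18 wingless male, and winged asexual females were the lowest group among the other morph means, at 413 ± 53.7 (SD, n = 3).

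ACYPI009231-RA followed with a ratio of 29.6 and was far more abundant. It stood at 22.5 in F1, 28.8 in I18 and 64.4 in BK11 in sexual females, and at 11351 in F1, 13902 in I18 and 3164 in BK11 in wingless asexual females. It stood at 2271 in F1, 3948 in I18 and 5829.6 in BK11 in winged asexual females, at 1939 in F1, 22846 in I18 and 4116 in BK11 in wingless males, and at 2088 in F1, 3370.2 in I18 and 2578 in BK11 in winged males. The I18 wingless male library held the highest value by a wide margin, and the 11 other libraries of males and asexual females covered a range from 1939 to 13902. ACYPI081833-RA was the least even member, with a 114-fold range over the 12 libraries. In sexual females it stood at 7.49 in F1, 1.28 in I18 and 1.95 in BK11, from 8, 2 and 3 reads. Elsewhere it ran from 219 in the BK11 wingless asexual female to 25081 in the I18 wingless male, and within each of the other 4 morphs the I18 library was the highest. Its sexual female mean, 3.58 ± 3.41 (SD, n = 3), was 0.0858% of its mean elsewhere, the smallest share among the 100.

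The most abundant member was ACYPI000479-RA, at 26676 ± 547 in wingless males, 22749 ± 3879 in wingless asexual females, 17016 ± 4539 in winged males and 9964 ± 3925 in winged asexual females (SD, n = 3 each). Its sexual female values were 405 in F1, 481 in I18 and 528 in BK11, with a mean of 471 ± 62.2 (SD, n = 3). Relative to its mean this was the smallest SD among the 100 in sexual females. The least abundant was ACYPI004370-RA, with a mean of 202 over the 12 libraries and sexual female values of 3.75 in F1, 12.2 in I18 and 7.16 in BK11. Of the 100, 13 had a mean below 500 over the 12 libraries, 22 one from 500 to 1000, 46 one from 1000 to 5000 and 19 one above 5000. Their median level, 1418, can be set beside 1797 for all eligible gene models.

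No gap in the ratio marked the limit of the group. The last members, ACYPI21273-RA and ACYPI50902-RA, had ratios of 7.88 and 7.76, and the first gene models outside, ACYPI007895-RA and ACYPI004741-RA, 7.75 and 7.73. The ratio was above 16 for 8 gene models, above 8 for 93, above 4 for 339 and above 2 for 704 of those eligible. In 1235, 15.3% of those eligible, every one of the 12 libraries exceeded every sexual female library by more than the added 1. 

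**Figure D2:**
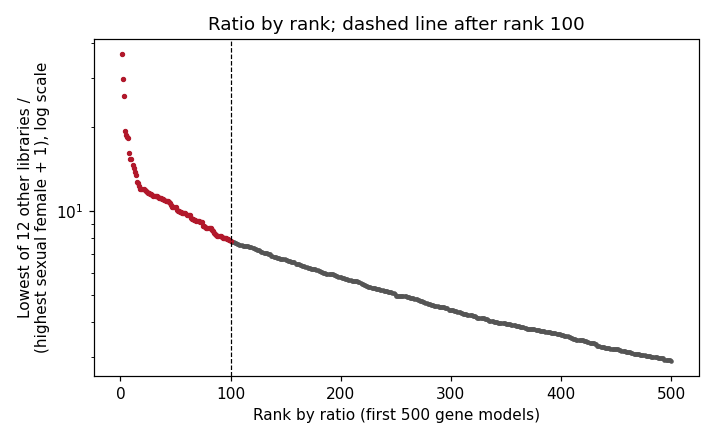
Ratio of the lowest of the 12 other libraries to the highest sexual female value plus 1 (log scale) by rank, for the first 500 eligible gene models, with the 100 members in red left of the dashed line. The curve passes the limit at 7.76 inside and 7.75 outside without a step.

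The remaining level in sexual females followed the same order of clones in most members. The F1 library was the lowest of the 3 sexual female libraries in 92 of 100 and the BK11 library the highest in 83. Among all eligible gene models these shares were 32.9% and 27.0%. As a share of the mean of the other 4 libraries of the same clone, members stood at a median of 1.08% in the F1 sexual female (lowest 0.0806%, highest 4.73%). The median was 3.19% in I18 (0.0134% to 9.06%) and 4.35% in BK11 (0.251% to 7.54%). Each clone supplied 1 sexual female library, so the difference between them has no replicate check, and the highest of the 3 entered the choice of members.

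Gene models high in males or in asexual females were measured beside these values. The 83 gene models at 1000 or more in every male library and at no more than 1% of the male mean in asexual females stood at a median of 0.00437% of the male mean in the F1 sexual female, 0.124% in I18 and 0.163% in BK11, and 36 of them were at 0 in F1. The 10 gene models with the reverse pattern, high in asexual females and nearly absent from males, stood at medians of 0.245%, 0.0515% and 2.00% of the asexual female mean, and at 0.460% to 8.91% in BK11. Both lists were drawn up from these data. The part of such traces in the remaining levels of the 100 members was not tested. Shares of the members were taken against their own clone and those of the lists against all 3 clones, so their medians are not directly comparable. Without the BK11 sexual female, the sexual female mean of the members was at a median of 2.11% of their mean elsewhere.

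**Figure D3:**
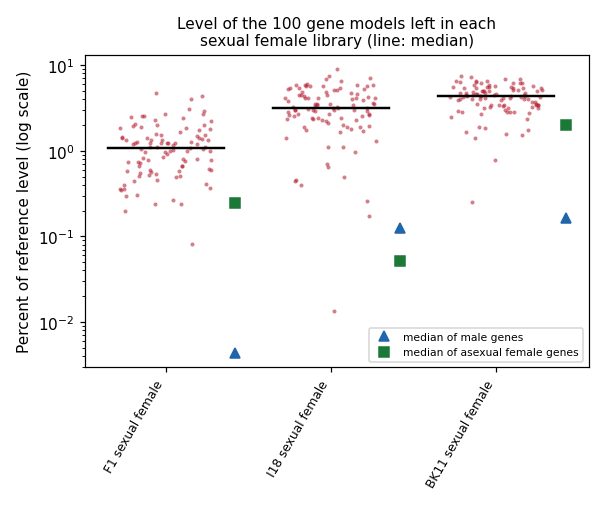
Level of each of the 100 gene models in the sexual female library of a clone as a percentage of the mean of that clone's other 4 libraries (red points, log scale; line, median). Triangles and squares give the medians of male and asexual female gene models as a percentage of their male or asexual female mean over all clones. The red medians rise from 1.08% in F1 to 4.35% in BK11, and points and symbols have different reference levels.

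Outside sexual females, the members were of moderately even level. The highest of the 12 values exceeded the lowest by a median of 4.02-fold, less than 3-fold in 19 members and 10-fold or more in 10, beside a median of 4.06-fold for all eligible gene models. The most even was ACYPI000866-RA, singled out after its values were seen, with a 1.72-fold range from 983 in the BK11 wingless asexual female to 1696 in the I18 winged male, against 68.2 ± 27.7 in sexual females. Winged males had the highest of the 4 other morph means in 44 members (21.4% of eligible gene models), wingless asexual females in 37 (45.0%), winged asexual females in 12 (21.7%) and wingless males in 7 (11.8%). Wingless males had the lowest mean in 39 members (18.3% of eligible gene models). The I18 wingless male supplied the lowest of the 12 values for 58 members (12.2% of eligible gene models) and the highest for 8. Its level was a median of 51.0% of the mean of the other 11 libraries.

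Males were compared with asexual females over the 12 libraries, a contrast the choice of members did not use, although the demand for a high value in all 12 favours even levels. Males were higher in 19 members and lower in 21 (limma on log2(value + 1), Benjamini-Hochberg adjusted p below 0.05). Over all 19915 gene models tested, 33.7% were higher and 26.3% lower, and over the eligible ones 23.1% and 44.7%. Whether the members' shares differ from these was not tested. The median log2 fold change of the 100 was −0.05, beside 0.27 for all tested and −0.35 for the eligible ones. Called members ranged from −2.86 to 1.64, and 6 of the higher and 12 of the lower ones reached 2-fold. Day length and temperature differed along with sex here and cannot be told apart from it.

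ACYPI001681-RA had the largest increase in males. It stood at 2935 in F1, 4318 in I18 and 1992 in BK11 in wingless males and 5227 in F1, 2966 in I18 and 2121 in BK11 in winged males. It stood at 999 in F1, 1726 in I18 and 387 in BK11 in wingless and 842 in F1, 1149 in I18 and 1367 in BK11 in winged asexual females, and at 13.1 in F1, 24.3 in I18 and 20.8 in BK11 in sexual females. All 6 male values lay above all 6 asexual female values (log2 fold change 1.64 ± 0.36 (SE), limma adjusted p = 0.00225). The call was lost without clone F1 (limma adjusted p = 0.0557) and kept in the other 25 alternatives. ACYPI009279-RA came next, at 8374 ± 2567 in winged and 5362 ± 2432 in wingless males against 2415 ± 227 in winged and 2578 ± 455 in wingless asexual females (SD, n = 3 each). Its log2 fold change was 1.36 ± 0.24 (SE), limma adjusted p = 4.3e-04. The I18 wingless male, at 2867, was its only male value within the asexual female range, which reached 2989.6.

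ACYPI009022-RA was the member with the largest decrease in males. Its values were 4013 in F1, 1778 in I18 and 2675 in BK11 in wingless asexual females and 1015 in F1, 795 in I18 and 1122 in BK11 in winged ones. In wingless males they were 267 in F1, 438 in I18 and 185 in BK11, and in winged males 210.3 in F1, 162 in I18 and 154 in BK11. The groups did not overlap (log2 fold change −2.86 ± 0.26 (SE), limma adjusted p = 2.9e-06), and sexual females were lower again, at 5.62 in F1, 13.5 in I18 and 18.2 in BK11. ACYPI50902-RA averaged 2349 ± 678 in wingless and 999 ± 199 in winged asexual females, and at 414 ± 115 and 420.4 ± 57.2 in wingless and winged males (SD, n = 3 each). Its log2 fold change was −1.86 ± 0.21 (SE), limma adjusted p = 1.5e-05. Its sexual female mean was 20.7 ± 16.7 (SD, n = 3). The count of members higher in males rested on single libraries. It was 31 without the I18 wingless male, with 6768 higher over all gene models in place of 6716. It was 12 without any 1 of the F1 wingless male, the F1 winged male and the BK11 wingless asexual female. Those fits called 6258, 6306 and 6329 higher over all gene models. Leaving out clone F1, I18 or BK11 gave 6, 30 and 10 higher and 19, 16 and 11 lower. Over all gene models, 4803, 5990 and 5777 were higher and 3641, 5187 and 4375 lower, in place of 6716 and 5242.

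In the limma fit without clone, the members called as different between winged and wingless asexual females were all lower in the winged form. Of the 100, 11 were lower and 0 higher in winged than in wingless asexual females (limma, adjusted p below 0.05). Over all gene models tested, 8.27% were lower and 5.4% higher, and over the eligible ones 17.6% and 7.39%, so the share of members lower in winged females lay between the backgrounds. At an unadjusted p below 0.05, 6 members were higher and 21 lower. In either direction this was 27% of members, beside 27.4% of all tested and 44.1% of the eligible ones. The 11 called members had log2 fold changes of −1.55 to −1.03, in the same direction in all 3 clones. The highest count of higher members under any setting was 5, in the fit of the 6 asexual female libraries alone, where 4 were lower. DESeq2 gave 3 higher and 13 lower, edgeR 1 and 9, and limma with a clone block 3 and 12. Over all 19915 gene models, DESeq2 gave 1705 higher and 2401 lower, edgeR 1170 and 1292, and the block 1261 and 1891.

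ACYPI003220-RA showed the largest decrease, at 1383 in F1, 1346 in I18 and 2724 in BK11 in winged against 7248 in F1, 3671 in I18 and 4829 in BK11 in wingless asexual females. All winged values lay below all wingless ones (log2 fold change −1.55 ± 0.31 (SE), limma adjusted p = 0.00884). The call was lost without clone F1 (limma adjusted p = 0.285) and in the fit of the 6 asexual female libraries alone. The male values, 1420.1 to 2076, lay within the range of the winged females. ACYPI008896-RA measured 2479 in F1, 3239.5 in I18 and 3755 in BK11 in winged and 11555 in F1, 7858 in I18 and 7871 in BK11 in wingless asexual females, again without overlap (log2 fold change −1.52 ± 0.29 (SE), limma adjusted p = 0.00713). Its call was lost without clone F1 (limma adjusted p = 0.175) and without clone BK11. Without clone F1 no member was called in either direction, and 10 were at an unadjusted limma p below 0.05. That fit called few gene models at all, 0 higher and 12 lower of 19915. The number lower was 4 without the F1 wingless asexual female, without the F1 winged one or without the I18 winged one, 6 without the BK11 wingless one and 6 without clone BK11. Over all gene models, these fits called 621 to 966 lower, in place of 1646.

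Between winged and wingless males no member was called in either direction (limma, adjusted p below 0.05; the smallest adjusted p among the 100 was 0.301). Few gene models were called at all, 0.131% higher and 0.0603% lower of those tested, and 0.124% and 0.0371% of the eligible ones. At an unadjusted p below 0.05, 6 members were higher and 3 lower in winged males. In either direction this was 9% of members, beside 7.59% of all tested and 5.72% of the eligible ones. At an adjusted p below 0.05 edgeR and DESeq2 each called 0 members, beside 5 and 570 of all 19915 gene models. Of the estimates, 83 of 100 were positive, beside 48.0% of all tested, with a median log2 fold change of 0.43 beside −0.03. Members are not replicates of a condition. The median moved both ways with single libraries. It was 0.12 without the I18 wingless male and 0.24 without the F1 winged male and 0.23 without clone I18, but 0.69 without the F1 wingless male and 0.64 without clone BK11. The members at an unadjusted limma p below 0.05 numbered 33 without the F1 wingless male and 19 with clone as a block. There were 4 without clone I18 and 4 with all 15 libraries, in place of 9. The share of all gene models at that p was not recorded for these fits. Without the I18 wingless, BK11 winged and BK11 wingless males together the median was 0.05 and no member was at that p, in a fit with 1 wingless male library left, whose spread was taken to be that of the other groups.

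The wing effect differed between the sexes, male minus female, in 2 members, both positive (limma test of the difference, adjusted p below 0.05; background 1.8% positive and 0.683% negative of all tested, 4.06% and 0.805% of the eligible ones). For ACYPI008896-RA the difference was 2.16 ± 0.42 (SE), limma adjusted p = 0.0259. It stood at 4031 in F1, 2796 in I18 and 2953 in BK11 in winged and 2854 in F1, 1347 in I18 and 2273 in BK11 in wingless males. All of these male and winged asexual female values lay below the 3 of wingless asexual females. ACYPI002028-RA measured 3375 in F1, 3217 in I18 and 2519 in BK11 in wingless and 1064 in F1, 1261 in I18 and 1466 in BK11 in winged asexual females, and at 769.5 in F1, 467 in I18 and 939.5 in BK11 in wingless and 927 in F1, 935 in I18 and 1072 in BK11 in winged males. Its difference was 1.75 ± 0.37 (SE), limma adjusted p = 0.036. In both gene models the winged form was lower in asexual females in all 3 clones and higher in males in all 3 clones. Of the 26 alternatives, 11 lost the call of ACYPI008896-RA (largest adjusted p 0.520, with limma) and 14 that of ACYPI002028-RA (0.553). Neither was called by limma without any 1 of the F1 wingless, BK11 wingless, F1 winged and I18 winged asexual females or of the winged males of F1, I18 and BK11. Over all 19915 gene models, those fits called only 0 to 148, in place of 495. ACYPI002028-RA, but not ACYPI008896-RA, was also lost with all 15 libraries, without the I18 wingless asexual female and without the F1 wingless male. Those fits called 411, 498 and 117 of all gene models.

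**Figure D4:**
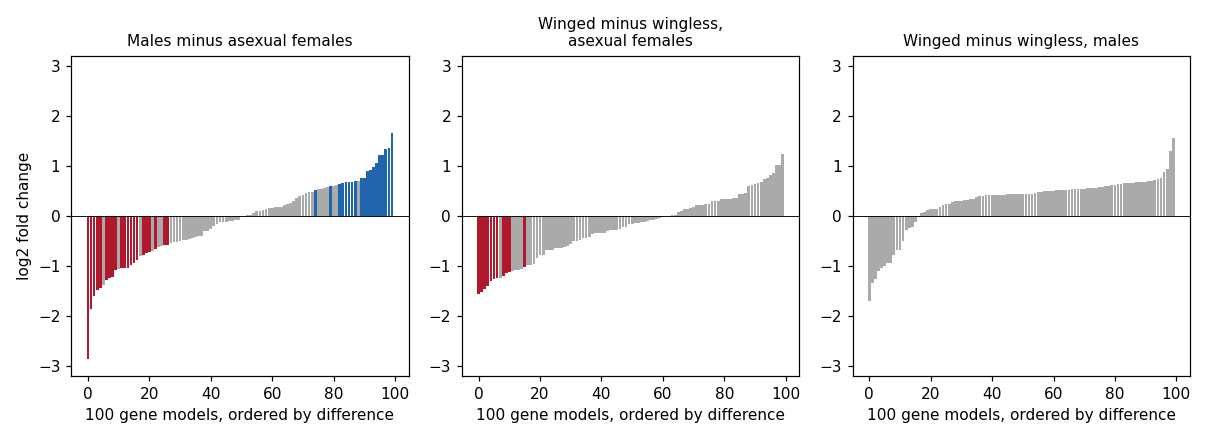
Log2 fold change of the 100 gene models, ordered by size within each panel, for males minus asexual females, winged minus wingless asexual females, and winged minus wingless males. Blue and red bars passed the limma threshold as higher and lower, 19 and 21 in the first panel and 0 and 11 in the second, and the third panel holds none.

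Members tended to share the order of the clones. Over the 12 libraries of males and asexual females, F1 had the highest mean log2 level in 75 of 100 members and I18 the lowest in 74, beside 32.0% and 38.5% of eligible gene models. The F1 library was the highest of 3 in 68 members among wingless males and in 77 among winged males, and in 60 among wingless asexual females. In winged asexual females the order was another, with BK11 highest in 60 and F1 in 17. In sexual females F1 was instead the lowest of the 3 in 92, as given above. The I18 wingless male lay below its morph mean in 83 members, with a median deviation of −0.64 on the log2 scale, beside 0.00 for eligible gene models.

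Gene by gene, these clone differences did not pass the test. The limma F test with morph in the model called 0 of 100 members at an adjusted p below 0.05, beside 5.4% of all gene models tested and 1.2% of the eligible ones. At an unadjusted p below 0.05 there were 23 members, beside 17.6% of all tested and 8.89% of the eligible ones. At an adjusted p below 0.05 edgeR called 0 members and DESeq2 4, beside 1023 and 2321 of all 19915 gene models. The 23 moved both ways with single libraries: there were 6 without the F1 wingless male, 7 without the F1 winged male, 12 without the I18 wingless male, 14 without the I18 winged male and 15 without the F1 wingless asexual female. The number rose to 30 without the F1 winged asexual female, without the BK11 winged asexual female or without clone BK11. There were 3 without clone F1, 14 without clone I18 and 1 with all 15 libraries in the fit. The share of all gene models at that p was not recorded for these alternatives. Whether the shifts are particular to the members was not tested. ACYPI008734-RA had the smallest p, at 5401 ± 976 over the 4 libraries of F1, 4185 ± 281 over those of BK11 and 3419 ± 810.2 over those of I18 (SD; limma F test, adjusted p = 0.0904). F1 had the highest value of the 3 clones in each of the 4 morphs. ACYPI001982-RA followed, at 912 ± 216 over the 4 libraries of F1, 678 ± 249 over those of BK11 and 524 ± 178 over those of I18 (SD; limma F test, adjusted p = 0.0988). It too was highest in F1 in each of the 4 morphs and lowest in F1 in sexual females, at 2.81 against 21.8 in I18 and 22.1 in BK11.

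As a description of how the members moved with each other, the mean pairwise Pearson correlation of their log2 deviations from the morph means was 0.38 over the 12 libraries, beside 0.02 for all eligible gene models and 0.42 for the 100 next in ratio. It was 0.33 without the I18 wingless male, beside 0.26 for the next 100. Within the 6 male libraries it was 0.42 and within the 6 asexual female libraries 0.20, beside 0.01 and 0.03 for eligible gene models. For the next 100 these values were 0.54 and 0.09. All gene models shared the same libraries, and the gene models are not independent replicates. The spread between clones in males had a median coefficient of variation of 40.9% in wingless and 29.0% in winged males, beside 22.9% and 14.1% for eligible gene models. In asexual females it was 22.9% and 20.3%, beside 18.3% and 23.2%. These comparisons with eligible gene models carry no test.

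**Figure D5:**
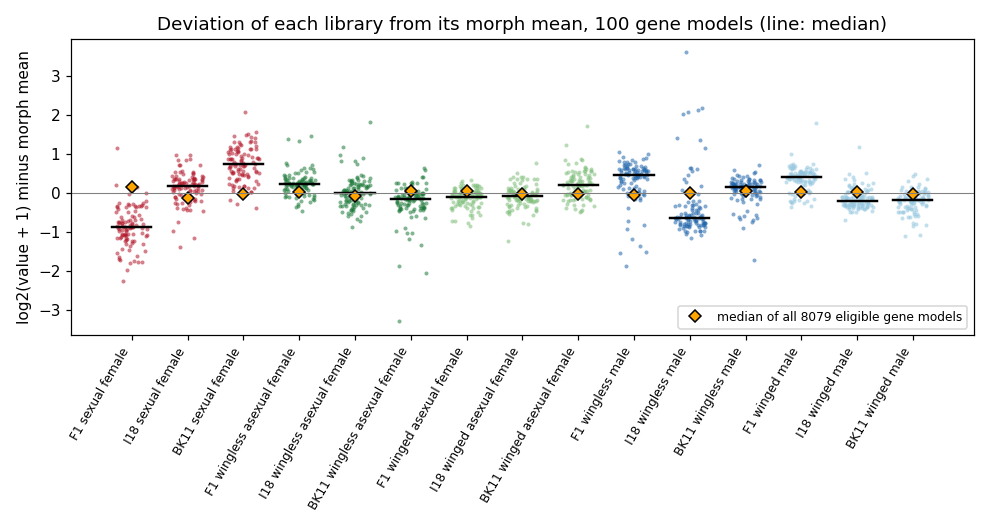
Deviation of each library from the mean of its morph on the log2(value + 1) scale, with 1 point per member, a line at the members' median and a diamond at the median of all eligible gene models. F1 lies low among sexual females (−0.89) and high among wingless (0.46) and winged males (0.40), and the I18 wingless male lies low (−0.64).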

How the data were processed

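Per the labels, RNA of 15 libraries was extracted with phenol and chloroform and sequenced on an Illumina instrument. The authors' deposited signal is a read count per gene model divided by a size factor, with no scaling for length. The submitters' processing notes name DESeq2 without a version. The aligner, counter, strand setting, build and annotation were not given in the sources used here, and reads shared by similar or overlapping gene models may be miscounted. Divided by the value of 1 read in its library, 100% of values came out whole within 0.001, which recovered the reads.

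The members and lists were chosen with earlier results of these data known. Log2(value + 1) was fitted with limma 3.58.1 in R 4.3.3 (mean-dependent prior variance) over the 12 libraries of males and asexual females with 4 morph means, leaving out sexual females because their values chose the members. Of 20657 gene models, 19915 with at least 10 normalised counts in at least 3 of the 12 libraries were tested, all 100 members included, and p-values were adjusted over all of them per comparison. Fold changes on this scale understate those of low genes. The clone test adds clone to the model. Libraries of a clone were paired, and their deviations from the morph means correlated with r of 0.179 to 0.646. Clone as a block was therefore run as a paired alternative. edgeR 4.0.16 and DESeq2 1.42.0 were run on the recovered reads. The limma steps for male wings and for clone were tested on counts simulated with a common dispersion for all gene models. No outlying library was simulated, and the wing simulation held no clone effect, so those conditions were not covered. Named gene models are the 3 with the largest ratio, those at the limit, the most and least abundant members, up to 2 called members per direction and comparison with the largest fold change and the same direction in all 3 clones, and the 2 with the smallest clone p.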

Additional observations from a re-analysis of the deposited data

Results flagged for a closer look

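Because the test of the difference between the wing effects of males and asexual females passed its threshold, 2 members are set out here. ACYPI008896-RA had a difference of 2.16 on the log2 scale (limma adjusted p = 0.0259), with within-clone values of 2.72 in F1, 2.33 in I18 and 1.44 in BK11. ACYPI002028-RA had a difference of 1.75 (limma adjusted p = 0.036), with 1.93, 2.35 and 0.97. Both also passed with edgeR and with DESeq2 on the recovered reads. Neither passed limma without any 1 clone, but 0 of all 19915 gene models did in those 3 fits, so those losses are not particular to them. ACYPI002028-RA was also lost in fits that still called many gene models. These were 411 with all 15 libraries and 498 without the I18 wingless asexual female, in place of 495.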

How the results depend on the processing

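Counts of called members depended on the fit. For winged against wingless asexual females (0 higher, 11 lower), 1 was higher with a filter of 50, trimmed mean scaling or edgeR, 2 without the I18 wingless, BK11 winged and BK11 wingless males, 3 with DESeq2, 3 with clone as a block and 5 in the fit of the groups compared, while 5 were lower with all 15 libraries and 4 with the groups compared. Over all gene models, 1114 of 14904 were higher in winged asexual females with a filter of 50 and 1205 of 19915 with trimmed mean scaling. With all 15 libraries 1397 were lower, and with the groups compared 577 were higher and 1143 lower. For the difference between the wing effects (2), the count was 4 with a filter of 50, 1 with all 15 libraries and 11 with DESeq2. Over all gene models it was 665 of 14904, 411 of 19915 and 1965 of 19915, in place of 495. The fit without those 3 male libraries leaves 1 wingless male, assumed to vary like the other groups, and so says little of stability. For males against asexual females, 12 were higher with all 15 libraries, beside 6562 over all gene models. The block gave 21 higher and 23 lower, beside 7277 and 5543. The clone test called 4 with DESeq2, beside 2321 of all 19915 gene models. Leaving out 1 library or clone gave 0 to 4 higher and 0 to 14 lower for female wings. Over all gene models this was 0 to 1507 and 12 to 2124. For the difference it gave 0 to 5, beside 0 to 788 higher and 0 to 388 lower over all. For males it gave 6 to 31 higher and 11 to 22 lower, beside 4803 to 6822 and 3641 to 5456. It gave 0 to 1 for clone, beside 210 to 1016. For male wings it gave 0 in either direction, beside 0 to 31 higher and 0 to 118 lower. The block changed no other count of called members by more than 1.5 times, and over all gene models it moved those lower in winged males from 12 to 26. Of the 100 members, 59 would be chosen again at a level of 500, 70 from the lowest morph mean, and 57 to 100 without 1 library. Over all gene models edgeR called 1170 higher and 1292 lower for female wings against 1075 higher and 1646 lower by limma, and 3 higher and 2 lower for male wings against 26 higher and 12 lower. DESeq2 called 123 higher and 447 lower for male wings. The members' median for males against asexual females ranged from −0.20 to 0.22 over all alternatives, so its sign is not settled. The cause was not tested. No direction of a named gene model reversed. Sexual female values of a few reads limit the ratio by counting error.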
